A study of Homo sapiens with 4 samples.

Results

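The genes described here carry a symbol made of CEP and a number, the name given to proteins found at the centrosome. They were chosen by symbol in the array's annotation. Where a gene had more than 1 probe set, the probe set was selected on its measured level, as the one with the highest mean over the 4 arrays. In all, 38 genes of 14884 named genes met this rule, through 40 probe sets, and only CEP192P1 had more than 1. Of the 38, 35 code for proteins. The other members are CEP170P1 and CEP192P1, which are transcribed pseudogenes, and CEP83-DT, a long noncoding RNA divergent from CEP83. The genes were also ranked by their level in untreated cells and by their difference between the groups. Levels and differences are therefore given as descriptions, and no test of the members is drawn from them. CEP83 and CEP112 are not analysed here.

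RNA came from RWP-1, an established human pancreatic cancer cell line, measured on 4 whole-transcript oligonucleotide arrays from 100 ng of RNA each. The groups were cells without treatment (Ctrl, n = 2 arrays) and cells given rGAL1, read here as recombinant galectin-1, a lectin that binds galactose-containing sugars (rGAL1, n = 2 arrays). The labels give no dose, time or vehicle and name no separate cultures, so a p-value here reflects array-to-array spread alone, possibly technical. The second rGAL1 array is labelled inconsistently: its title and source name say rGAL1 and its treatment field says control. The series' design text counts 2 samples a group, so it was kept as rGAL1, and the main values are also given without it and with it counted as Ctrl.

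A centrosome is a pair of centrioles, barrels of microtubules, held in a protein matrix that nucleates microtubules and organises the mitotic spindle. Each centriole is copied once per cell cycle. The older one carries distal and subdistal appendages, docks at the membrane in resting cells and becomes the base of a primary cilium, while small granules called satellites move proteins to and from it. Pancreatic ductal cells are ciliated, and the loss of cilia and extra centrosomes are known features of pancreatic cancer.

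Values are deposited log2 expression values from RMA, a method that removes background, puts arrays on a common scale and gives each probe set 1 value. The array medians over all 53617 probe sets lay between 4.69 and 4.72. The median of the probe set means, 4.70, served as the dim level because the table has no detection calls. Epithelial markers matched the labelled cell type: all 6 of the 8 listed genes that were measured lay above the dim level. KRT18 was at 12.41, EPCAM at 9.88 and KRT7, the lowest of them, at 5.36 in Ctrl. Of the other lists 2 of 6 fibroblast, 2 of 5 leukocyte and 3 of 4 endothelial genes were measured. DCN (2.91), LUM (3.37), PECAM1 (4.19), KDR (4.47) and LYZ (4.58) lay below the dim level in Ctrl, and VWF (4.85) and CD14 (4.94) just above it. In 4 of the 6 epithelial genes (66.7%) the rGAL1 values were the lower pair, beside 17.0% of named genes. The list's median difference was -0.072, with -0.38 (SE 0.17) in KRT7, and the list's part in the results below was not tested. RMA signal depends on each probe set's binding strength, so an order of levels between genes is an order of array values and not of transcript numbers.

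Most CEP genes had slightly higher values on the rGAL1 arrays. A higher rGAL1 mean was found in 30 of 38 members, where 51.7% of all named genes had one, and 8 members had a lower mean. The median difference, rGAL1 minus Ctrl, was 0.11 log2 units, a 1.08-fold higher level, beside 0.0056 over all named genes and 0.0091 over the 10684 named genes above the dim level. Differences ran from -0.085 in CEP170 to 0.40 in CEP85L, with a median standard error (SE) of 0.11. Both rGAL1 arrays lay above both Ctrl arrays in 17 members, where 20.2% of named genes showed this. Both lay below in 2 members, CEP170 and CEP170P1, where 17.0% of named genes showed this. In the remaining 19 the groups overlapped. Because the members were ranked on this same contrast, nothing further is read from these counts.

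No CEP gene passed the test across the array. With limma over all probe sets, 0% passed an adjusted p under 0.05, where the smallest adjusted p was 0.919, and 5.24% (2807 of 53617) had an unadjusted p under 0.05. Among named genes that share was 2.98%, and 3 of the 38 members had such a p: CEP85L, CEP128 and CEP290. The size of the shift depended on single arrays. For the arrays numbered 1 alone the members' median was 0.061, and for those numbered 2 it was 0.11. It was 0.052 without Ctrl 2 and 0.069 without rGAL1 2, the array with conflicting labels, with 27 of 38 members higher in the latter case. Counting rGAL1 2 as Ctrl gave 0.059, with 28 higher. In these 3 fits a group has 1 array and no spread of its own. The members' median level was 6.71 on Ctrl 1, 6.62 on Ctrl 2, 6.80 on rGAL1 1 and 6.72 on rGAL1 2, so the lower Ctrl array and the lower rGAL1 array both carry the number 2.

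**Figure D1:**
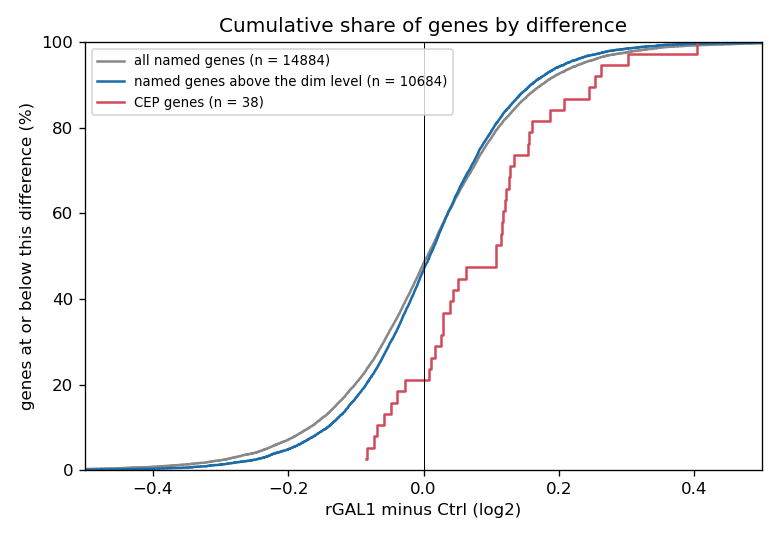
The percentage of genes at or below each difference, rGAL1 minus Ctrl on the log2 scale, for the 38 CEP genes, all 14884 named genes and the 10684 above the dim level. The axis leaves out the few named genes with larger differences. The CEP curve lies to the right of both others over most of its range, with a median of 0.11 beside 0.0056 for all named genes.

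In untreated cells the CEP genes ran from 3.59 to 8.99 log2 units, and 36 of 38 lay above the dim level on the mean of the 4 arrays. The highest was CEP20, also called FOR20, a satellite protein, at 9.01 and 8.98 on the Ctrl arrays and 9.07 and 9.02 on the rGAL1 arrays. Its Ctrl mean exceeded those of 96.4% of named genes, and its rGAL1 arrays lay just above its Ctrl arrays, by 0.051 (SE 0.099). Next came CEP55, which recruits the machinery that cuts the bridge between daughter cells, at 8.04 and 7.93 in Ctrl and 8.04 and 8.02 in rGAL1. CEP350, a large centriole protein, measured 7.84 and 7.92 in Ctrl and 7.91 and 7.80 in rGAL1. For CEP55 and CEP350 the groups overlapped.

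At the other end, CEP85L, a paralog of CEP85 needed for neuronal migration, was dimmest, at 3.66 and 3.52 in Ctrl and 3.88 and 4.11 in rGAL1. All 4 of its values lay below the dim level, yet the groups did not overlap. CEP192P1 measured 4.10 and 4.00 in Ctrl and 3.87 and 4.29 in rGAL1, with each rGAL1 array on a different side of the Ctrl pair. Its 2 dimmer probe sets differed by -0.040 and -0.31, against 0.029 (SE 0.17) for the brightest, so the 3 do not share a direction. CEP83-DT was near the dim level, at 4.60 and 4.82 in Ctrl and 4.70 and 4.96 in rGAL1. Just above it were CEP295NL at 4.87 and CEP126 at 4.88 in Ctrl. Of the 37 pairs of neighbours in the order of Ctrl means, 21 were separated by more than the pooled SD of their Ctrl arrays. The widest gaps were those from CEP20 down to CEP55, 1.01 units, and from CEP83-DT down to CEP192P1, 0.66 units. In the middle of the order the gaps were small: CEP290 and CEP170P1 differed by 0.00066 units, and CEP57, CEP170, CEP43 and CEP120 all lay between 7.01 and 7.04.

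**Figure D2:**
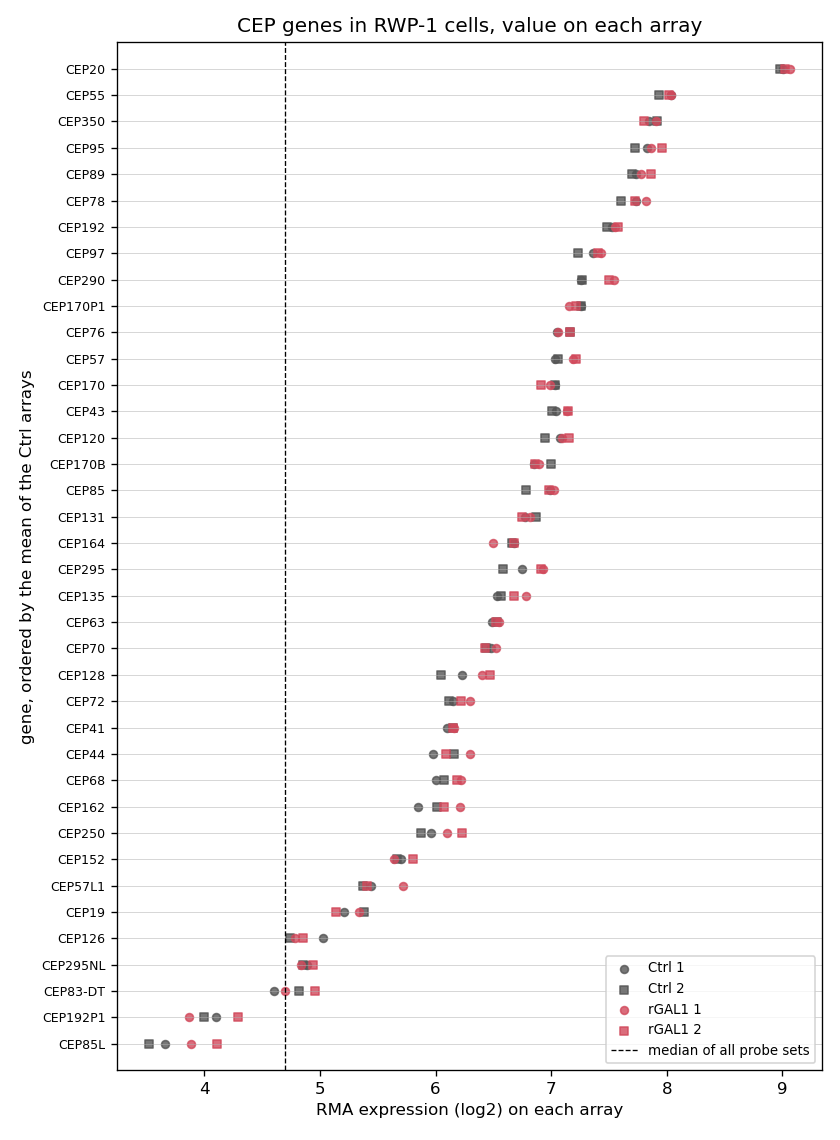
Values of the 38 CEP genes on each of the 4 arrays (log2 RMA expression), ordered by Ctrl mean, with circles for arrays numbered 1 and squares for arrays numbered 2. CEP20 stands apart at the top at 8.99 in Ctrl, CEP85L lies lowest at 3.59, and for most genes the 4 points are close together compared with the spacing of the order as a whole.

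Centrosome genes are in part transcribed with the cell cycle, through CHR elements and E2F sites, and in part with cilium formation, through RFX factors that bind X-box sites. NF-Y binds CCAAT boxes in many such promoters. RefSeq promoters (GRCh38.p14, from 250 bases before to 50 after an annotated start) were found for 32 of the 38 members, with 38 starts in all. On either strand, TTTGAA, the CHR motif, was found in 14 of the 38 windows (36.8%), beside 15.2% of 35116 windows of all genes. CCAAT was found in 19 (50%, beside 34.6%). For E2F, TTGGCGC or TTCGCGC was found in 5 (13.2%, beside 5.06%). GTTGCC, one arm of the X-box, was found in 10 (26.3%, beside 12.2%). In 106 windows of known partner genes of the same structures, the shares were 15.1% for the CHR motif, 49.1% for CCAAT, 10.4% for E2F and 22.6% for the X-box arm, so those of the last 3 were nearer to the CEP shares than to those of all genes. A CCAAT box read on the other strand, ATTGG, can share the letters TTGG with TTGGCGC. A match is a description, not a bound site. With the 50 bases after the start left out, the CHR motif was in 8 windows (21.1%, beside 13.3%). The median GC content was 61.8% in CEP windows and 58.7% in all, and windows of 1 gene with several starts can overlap.

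The 250 bases before the start are shown for the 4 genes with the largest positive differences, CEP85L, CEP128, CEP290 and CEP295, for CEP55, the member tied to cell division, and for CEP89, an appendage gene whose window holds 3 of the 4 motifs. Capitals mark the motif matches. They lie, on GRCh38.p14, at chr6:118710090-118710339 (minus strand, the outer of 2 CEP85L starts), chr14:80941739-80941988 (minus, CEP128), chr12:88142089-88142338 (minus, CEP290), chr11:93661432-93661681 (plus, CEP295), chr10:93496362-93496611 (plus, CEP55) and chr19:32971959-32972208 (minus, CEP89).
CEP85L: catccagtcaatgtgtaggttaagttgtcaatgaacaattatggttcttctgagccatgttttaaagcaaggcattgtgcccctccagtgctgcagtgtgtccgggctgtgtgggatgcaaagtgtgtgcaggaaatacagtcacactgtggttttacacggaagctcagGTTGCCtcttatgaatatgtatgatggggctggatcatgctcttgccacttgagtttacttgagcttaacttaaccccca
CEP128: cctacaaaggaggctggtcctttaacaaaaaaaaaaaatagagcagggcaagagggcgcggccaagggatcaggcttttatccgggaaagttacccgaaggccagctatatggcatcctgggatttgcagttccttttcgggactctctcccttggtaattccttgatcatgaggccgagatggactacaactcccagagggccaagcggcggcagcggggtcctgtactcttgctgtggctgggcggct
CEP290: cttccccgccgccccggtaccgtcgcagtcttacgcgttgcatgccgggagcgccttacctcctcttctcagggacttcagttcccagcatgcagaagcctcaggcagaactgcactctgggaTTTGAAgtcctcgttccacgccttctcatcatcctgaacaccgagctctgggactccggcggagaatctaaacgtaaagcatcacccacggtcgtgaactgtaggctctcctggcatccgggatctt
CEP295: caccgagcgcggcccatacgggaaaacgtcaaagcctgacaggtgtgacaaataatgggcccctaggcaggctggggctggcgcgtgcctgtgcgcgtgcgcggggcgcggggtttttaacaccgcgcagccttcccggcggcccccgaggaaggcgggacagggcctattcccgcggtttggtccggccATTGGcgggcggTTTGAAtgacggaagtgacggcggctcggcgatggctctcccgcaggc
CEP55: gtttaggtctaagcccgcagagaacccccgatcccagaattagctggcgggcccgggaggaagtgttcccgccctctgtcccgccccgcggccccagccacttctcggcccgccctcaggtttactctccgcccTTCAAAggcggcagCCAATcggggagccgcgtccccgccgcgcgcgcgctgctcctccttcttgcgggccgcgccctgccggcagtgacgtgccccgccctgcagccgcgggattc
CEP89: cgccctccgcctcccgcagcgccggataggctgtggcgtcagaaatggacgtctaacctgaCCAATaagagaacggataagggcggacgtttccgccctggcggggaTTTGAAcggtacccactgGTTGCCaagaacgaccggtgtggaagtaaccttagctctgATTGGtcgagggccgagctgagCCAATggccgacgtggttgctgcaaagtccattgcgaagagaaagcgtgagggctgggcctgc
CEP55 and CEP295 each hold a CHR match and a CCAAT box. In CEP55 the CHR match ends 111 bases and the CCAAT box 98 bases before the start. In CEP295 the order is the reverse, with ends at 56 bases for CCAAT and 43 for the CHR match. CEP290 has a CHR match ending 122 bases before the start and CEP85L an X-box arm ending at 75, while the CEP128 stretch shown has no match to these letters. The 6 members with no promoter in the table, CEP78, CEP170B, CEP170P1, CEP192P1, CEP250 and CEP295NL, were left out of these shares.

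Genes of centriole assembly lay higher on the rGAL1 arrays in all 4 members, with a median difference of 0.16 log2 units. CEP295, which turns a new centriole into one that can duplicate, measured 6.75 and 6.59 in Ctrl and 6.93 and 6.91 in rGAL1. The groups did not overlap, and the difference was 0.25 (SE 0.11, 1.19-fold, n = 2 a group). CEP135, which joins the cartwheel at the core of a growing centriole to its wall, differed by 0.19 (SE 0.10), from 6.55 ± 0.026 to 6.73 ± 0.073 (SD, n = 2). CEP120, which promotes centriole elongation, differed by 0.11 (SE 0.11). In these 3 genes both rGAL1 arrays were above both Ctrl arrays, where 20.2% of named genes showed this. CEP44, a protein of the centriole wall, overlapped between groups, with a difference of 0.13 (SE 0.13) that was 0.021 without rGAL1 1.

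The scaffold that starts duplication and the surrounding matrix were represented by 7 genes. All 7 had higher rGAL1 means, with a median of 0.063. In 2, CEP57 and CEP192, both rGAL1 arrays were above both Ctrl arrays, where 20.2% of named genes showed this. CEP57, which works with CEP63 and CEP152 around the parent centriole, measured 7.03 and 7.06 in Ctrl and 7.19 and 7.21 in rGAL1, a difference of 0.16 (SE 0.098). Its paralog CEP57L1 was dimmer, at 5.44 and 5.38 in Ctrl and 5.72 and 5.41 in rGAL1. The means of CEP57L1 differed by 0.15 (SE 0.14), but by -0.0020 without rGAL1 1. CEP192, which recruits the duplication kinase PLK4 and the matrix, differed by 0.063 (SE 0.099). Its partners in that step, CEP152 and CEP63, differed by 0.040 (SE 0.11) and 0.029 (SE 0.098), both with overlap. CEP85, which binds the duplication factor STIL, measured 6.99 and 6.79 in Ctrl and 7.03 and 6.98 in rGAL1, so the Ctrl arrays stood further apart than the group means, which differed by 0.12. CEP70, which helps to organise microtubules, differed by 0.012.

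Genes that cap centrioles or limit their copying gave a median of 0.11 over 3 members. CEP97, the partner of the cap protein CCP110, had a Ctrl mean of 7.29 ± 0.091 and an rGAL1 mean of 7.42 ± 0.019 (SD, n = 2) without overlap. CEP78, a centriole-wall protein mutated in a retinal and hearing disorder, differed by 0.11 (SE 0.11) with overlap. CEP76, which prevents a second round of copying, differed by 0.0087. The values of CEP76 followed the array number and not the group, at 7.05 and 7.06 on the arrays numbered 1 and 7.16 and 7.17 on those numbered 2.

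Appendage and linker genes of the mother centriole had differences in both directions, and the positive ones were the larger. Of the distal appendage genes, CEP89 differed by 0.11 (SE 0.10) without overlap and CEP164, which brings in the kinase that starts cilium growth, by -0.084 (SE 0.11). CEP164 measured 6.67 and 6.66 in Ctrl and 6.496 and 6.675 in rGAL1, so 1 array, rGAL1 1, made the difference, which was 0.0057 without it. Among the subdistal appendage and linker genes 3 of 4 had higher rGAL1 means, with a median of 0.20. CEP128, which holds other proteins at the subdistal appendages, measured 6.23 and 6.05 in Ctrl and 6.41 and 6.47 in rGAL1. Its groups did not overlap, and the difference of 0.30 (SE 0.11, 1.23-fold) was 0.16 when rGAL1 2 was counted as Ctrl. CEP250, the anchor of the fibre that ties the centrioles together until mitosis, measured 5.96 and 5.88 in Ctrl and 6.10 and 6.23 in rGAL1, a difference of 0.24 (SE 0.11) that was 0.078 with rGAL1 2 counted as Ctrl. CEP68, a part of that fibre, differed by 0.16 (SE 0.10), also without overlap.

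CEP170 went the other way. This subdistal appendage protein, which also binds microtubules, measured 7.03 and 7.04 in Ctrl and 6.99 and 6.91 in rGAL1. Its rGAL1 values were both below its Ctrl values, by -0.085 (SE 0.10) in the means. That difference was -0.046 without rGAL1 2 and -0.0047 with it counted as Ctrl. Its pseudogene CEP170P1 measured 7.26 and 7.26 in Ctrl and 7.16 and 7.21 in rGAL1, a difference of -0.073 (SE 0.099). A pseudogene's probes can bind transcripts of the parent gene, and the 2 signals cannot be told apart here. CEP170B, the coding paralog, measured 6.853 and 6.996 in Ctrl and 6.89 and 6.86 in rGAL1, with overlap and a difference of -0.048 (SE 0.11).

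Of the satellite genes, CEP72 measured 6.13 ± 0.026 in Ctrl and 6.26 ± 0.052 in rGAL1 (SD, n = 2) without overlap, a difference of 0.13 (SE 0.10). CEP20 differed by the 0.051 given above. CEP131, which is carried on satellites and supports cilium formation, differed by -0.039 (SE 0.10), and by 0.0083 without Ctrl 2. The median of the 3 was 0.051.

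Genes of the transition zone and cilium gave a median of 0.12 over 4 members. CEP290, a gatekeeper between cilium and cytoplasm whose mutation causes blindness and Joubert syndrome, measured 7.25 and 7.26 in Ctrl and 7.545 and 7.497 in rGAL1. Ctrl 1 minus Ctrl 2 was -0.0097, and the group means differed by 0.26 (SE 0.098, 1.20-fold). That difference of means ran from 0.24 to 0.29 as each array was left out and was 0.21 with rGAL1 2 counted as Ctrl. Among the 4 genes with the largest positive differences, CEP290 was the 1 with a larger difference between the arrays numbered 1 (0.29) than between those numbered 2 (0.23). CEP162, which ties the axoneme to the transition zone, differed by 0.21 (SE 0.12) without overlap, by 0.36 between arrays numbered 1 and by 0.055 between arrays numbered 2. CEP41, which promotes tubulin modification in cilia, differed by 0.026. CEP126, a microtubule-binding protein of the cilium base, measured 5.02 and 4.74 in Ctrl and 4.78 and 4.85 in rGAL1. Its difference of -0.068 (SE 0.14) was 0.072 without Ctrl 1.

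CEP43, CEP350 and CEP19 form a module at the distal end of the mother centriole, CEP43 being known as FOP. CEP43 measured 7.02 ± 0.024 in Ctrl and 7.14 ± 0.0033 in rGAL1 (SD, n = 2), without overlap, a difference of 0.12 (SE 0.098). CEP350 differed by -0.028 (SE 0.11) and CEP19, linked to obesity, by -0.059 (SE 0.13), both with overlap. The module's median of -0.028 was the only negative one among the 10 role groups, and it was 0.027 without Ctrl 2 and 0.039 without rGAL1 2. CEP55, alone in the cytokinesis group, differed by 0.044 (SE 0.10), and by -0.010 without Ctrl 2.

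Among the less characterised genes, CEP95 differed by 0.13 (SE 0.11) without overlap. CEP85L had the largest difference of all members, 0.40 (SE 0.13, 1.32-fold), which ran from 0.29 to 0.52 as each array was left out and was 0.12 with rGAL1 2 counted as Ctrl. Its value on rGAL1 2 was the highest of the 4. Its difference was larger than that of CEP85 (0.12), but CEP85L lay at 3.59 in Ctrl, under the dim level, and CEP85 at 6.89. CEP295NL, a paralog of CEP295, measured 4.89 and 4.85 in Ctrl and 4.84 and 4.94 in rGAL1, so the groups overlapped, unlike those of CEP295. CEP83-DT differed by 0.12 (SE 0.15).

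**Figure D3:**
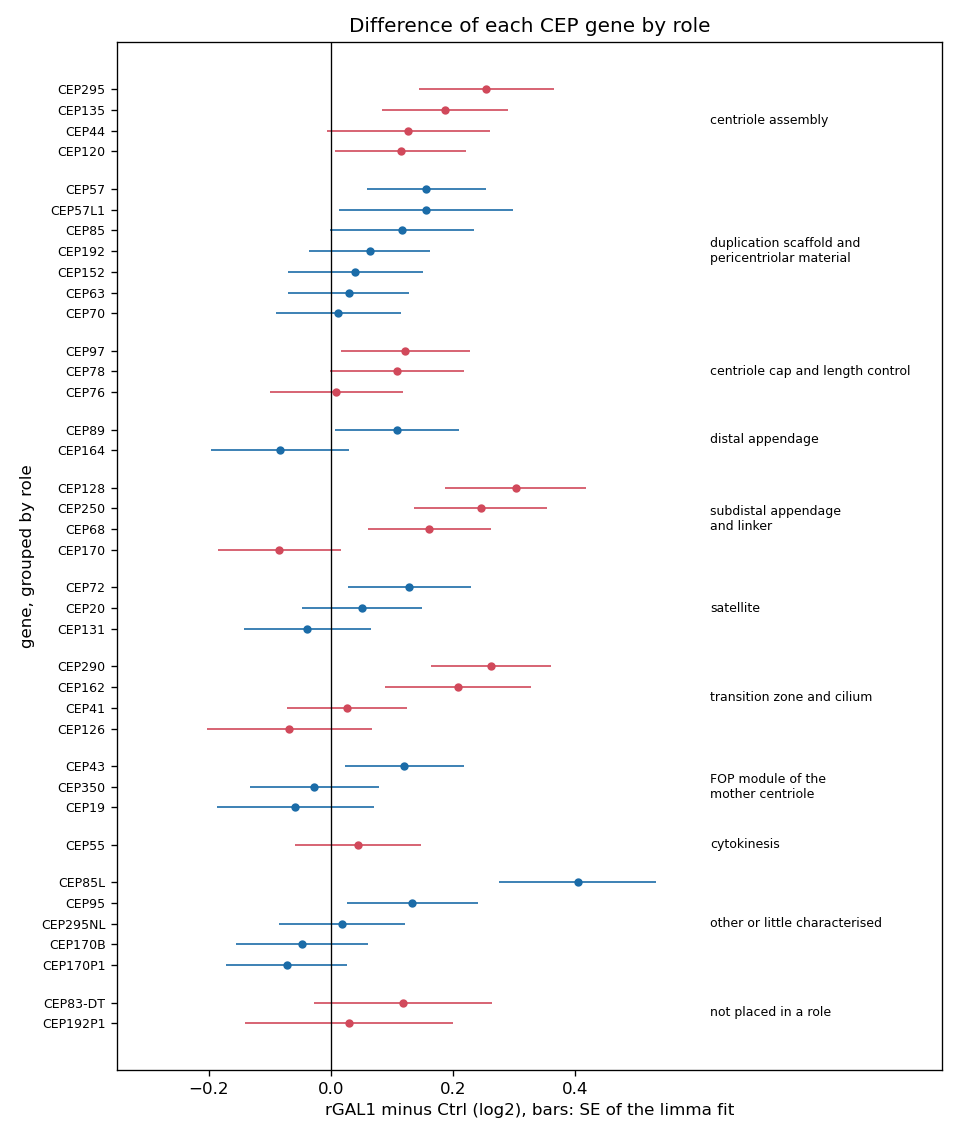
Difference of each of the 38 CEP genes, rGAL1 minus Ctrl on the log2 scale, grouped by role; points are differences of means of 2 arrays a group and bars the SE of the limma fit. All 4 centriole assembly genes and all 7 duplication scaffold genes lie above 0. In all, 8 genes lie below it, the lowest being CEP170, CEP164, CEP170P1 and CEP126.

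Between same-numbered arrays, 22 of the 38 members were higher in rGAL1 in both comparisons and 2 were lower in both. The signs stayed the same under quantile normalization and under centring of the arrays in all 38 members. Centring adds the same amount to every difference, and the arrays were already on a common scale. These 2 settings could therefore turn few signs. Leaving out 1 array turned the sign in 14 members and moved the difference of 28 by over 1.5 times. The 10 that moved less were CEP57, CEP43, CEP295, CEP135, CEP128, CEP72, CEP68, CEP250, CEP290 and CEP85L. Counting rGAL1 2 as Ctrl moved 19 of the 38 differences by more than the spread between arrays. Of the 10 just named, CEP57 was then 0.088, CEP43 0.077, CEP128 0.16, CEP250 0.078, CEP290 0.21 and CEP85L 0.12. Of the others without overlap, CEP89 was 0.013, CEP95 0.026, CEP120 0.039 and CEP192 0.021. Of the role medians, that of the subdistal and linker genes was 0.11 with rGAL1 2 counted as Ctrl and that of centriole assembly 0.24 without rGAL1 2. Distal appendage genes had a median of 0.012, which was -0.055 without rGAL1 2 and -0.081 with it counted as Ctrl. The cap and length genes had 0.057 without Ctrl 2.

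**Figure D4:**
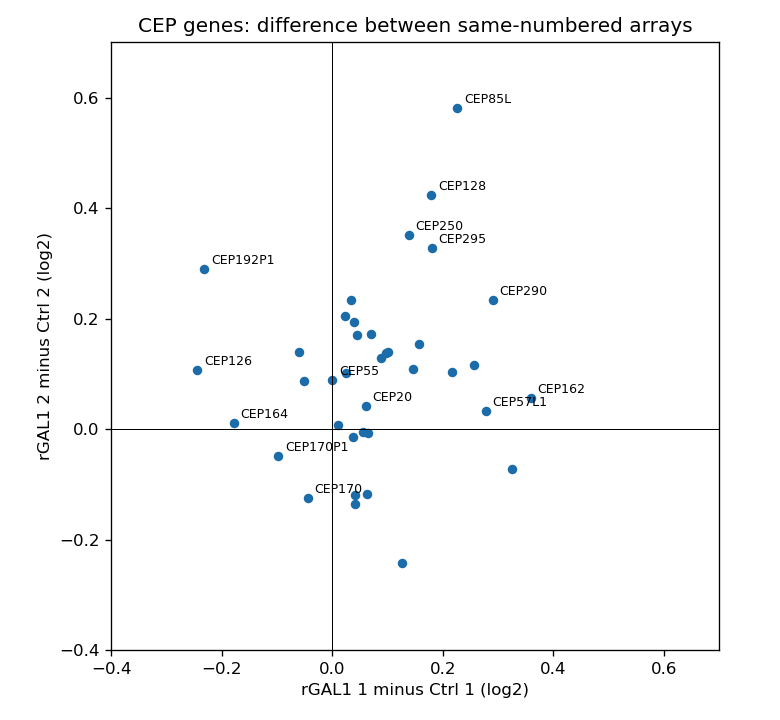
For each CEP gene, rGAL1 minus Ctrl for arrays with the number 1 (horizontal) and with the number 2 (vertical), in log2 units. The 22 genes to the upper right were higher on the rGAL1 array of both numbers; CEP85L, at 0.23 and 0.58, is among them, and CEP192P1 and CEP126 had opposite signs.

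The other genes of the same structures came from 6 lists of known partners. None of their members passed an adjusted p under 0.05 (limma) in either direction, where 0% of all probe sets did. An unadjusted limma p under 0.05 was found in 0 of them, beside 2.98% of named genes. Centriole duplication partners were higher in 7 of 9 measured genes, with a median of 0.11, and in 6 both rGAL1 arrays were above both Ctrl arrays (20.2% of named genes). In 2, POC1A and HYLS1, both were below (17.0% of named genes). In this list CCP110, the cap protein that CEP97 binds, measured 7.44 and 7.30 in Ctrl and 7.65 and 7.57 in rGAL1, a difference of 0.24 (SE 0.11). PLK4, the kinase that starts duplication, differed by 0.11 (SE 0.10), and POC1A, a protein of the centriole lumen, by -0.14 (SE 0.10).

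Satellite partners were higher in 8 of 10, with a median of 0.064. TBC1D31 had the largest difference of that list, 0.23 (SE 0.098), and BBS4 the lowest, -0.015. PCM1, the scaffold of satellites, differed by 0.12 (SE 0.10) and OFD1, a satellite and centriole protein, by 0.051 (SE 0.12). Of the matrix partners only 4 of 22 had named probe sets, 3 of them higher, with a median of 0.038. CDK5RAP2 differed by 0.13 and PCNT, the main matrix scaffold, by -0.0071.

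Appendage and linker partners were split, with 7 of 13 higher and a median of 0.0033, ranging from -0.13 in LRRC45 to 0.16 in SCLT1. ODF2, which is needed for appendages, differed by 0.11 (SE 0.099). Transition zone partners were higher in 8 of 12, with a median of 0.035, from -0.17 in B9D2 to 0.17 in TMEM237. Abscission partners, among which CEP55 works, were higher in 8 of 9, with a median of 0.053. KIF23, a motor of the midbody, differed by 0.13 (SE 0.11) and KIF20A by -0.13 (SE 0.11). Without rGAL1 1 the medians of the abscission, appendage and transition zone lists were 0.00017, -0.010 and -0.011, and that of the matrix list was 0.0081. Without rGAL1 2 the abscission, transition zone and matrix medians were 0.11, 0.094 and 0.063.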

How the data were processed

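The deposited table holds log2 expression values per probe set for 4 arrays, made by the authors with RMA; limma is also named in the submitters' processing notes. The version of each is not given in the sources used. Groups came from the sample titles. Of 53617 probe sets, 16098 had 1 gene symbol in the platform annotation and 37519 had none, and all 16098 matched a RefSeq gene by ID with no symbol changed. The brightest probe set stood for each gene. The members, role groups and partner lists were chosen with earlier results of these data known. Every member is named once; values on each array are given for the extremes of level and difference, CEP55 and paralog pairs, and, chosen after their values were seen, for CEP76, CEP250 and CCP110, and the partner lists name the extremes of each list and some core genes.

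All probe sets were fitted together with limma 3.58.1 in R 4.3.3 (lmFit, eBayes, no block), two-sided, with p-values adjusted by Benjamini-Hochberg over all of them, leaving 2 residual degrees of freedom and 2.75 prior ones. In a simulation of this comparison with 53617 probe sets, 0 of 67 changes of 0.5 log2 units, 0 of 67 of 1 unit and 45 of 66 of 2 units were called, with 3 false calls. The 4 arrays limit the precision. Promoter windows were searched by exact match on both strands. Alternatives left out arrays, changed the scaling, the prior, the filter and the probe set rule, and blocked on the replicate number. Same-numbered arrays did not deviate together from their group means (r = -0.048 across probe sets), so the numbers were not taken to pair them.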

Additional observations from a re-analysis of the deposited data

How the results depend on the processing

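Some settings were added after seeing the data: protein-coding members only, and all settings for the count of members with a higher rGAL1 mean and for the partner lists. No probe set passed an adjusted p under 0.05 in limma in any fit (0 to 0 with 1 array left out). The count at an unadjusted p under 0.05, 2807, was 2406 to 3444 with 1 array left out, 1641 among probe sets over the dim level and 1006 among those with a symbol, which are fewer. The members' median of 0.11 ranged from 0.052 to 0.092 with 1 array left out and was 0.10 after quantile normalization and 0.12 after centring, which moved the median of all named genes to 0.020. With the replicate block the median was 0.11, which a block cannot change in a balanced design. In that limma fit 0 probe sets passed and 2548 had an unadjusted p under 0.05, so the block changed no call. The number without overlap, 19, was 27 to 30 with 1 array left out, where fewer arrays make overlap rarer by construction, and 18 to 20 otherwise. Members with a higher mean numbered 27 to 31, role groups with a positive median 8 to 9 of 10, and partner lists with one 4 to 6 of 6. The CHR motif was in 14 windows, and in 8 without the bases after the start, where fewer letters are searched. At the 75th percentile of all probe sets as the dim level, 25 members lay above it instead of 36. Of the single members' differences under these settings, 285 moved by less than the spread between arrays and 19 by more. This count does not measure stability. With 2 arrays a group, leaving out 1 cannot move a difference beyond this spread, and the block cannot move it at all. By sign, leaving out 1 array turned 14 members. All 19, of 38 members, moved with rGAL1 2 counted as Ctrl, a setting without that limit. The count therefore cannot rank the settings, and the cause of the 19 moves was not tested. Signal over background could not be judged, as the table has no detection calls.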

Other observations

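Some centrosomal genes are listed in RefSeq with a CEP number as a former name and are not among the 38 members. The group was picked after seeing the data. Of 11 measured genes with such a synonym, the centrosomal ones are CCP110, CNTRL, CDK5RAP2, NCKAP5L and PIBF1. CCP110 (once CEP110), which caps centrioles, had the largest difference, 0.24 (SE 0.11). CNTRL, a subdistal appendage protein that shares the former name CEP110, measured 6.21 ± 0.092 in Ctrl and 6.35 ± 0.045 in rGAL1 (SD, n = 2), a difference of 0.14 (SE 0.11). CDK5RAP2 (CEP215), a matrix protein, differed by 0.13 (SE 0.10). In these 3 genes both rGAL1 arrays lay above both Ctrl arrays. Of all 11 genes 4 (36.4%) showed this, CRTAC1 being the other 1, beside 20.2% of named genes. NCKAP5L (CEP169), a microtubule-binding protein, differed by 0.046 (SE 0.12) and PIBF1 (CEP90), a satellite and centriole protein, by -0.0083 (SE 0.098), both with overlap. None of the 11 passed an adjusted p under 0.05 in limma, where 0% of all probe sets did. An unadjusted limma p under 0.05 was found in 0 of the 11, beside 2.98% of named genes.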
